A study of Rattus norvegicus with 8 samples.

Results

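Imprinted genes are expressed mainly from the allele of 1 parent, and a set of them is active in the hypothalamus, the brain region that regulates feeding, growth and hormone release. The genes described here are Ndn, Magel2, Snurf and Snrpn from the region lost in Prader-Willi syndrome, a disorder with early poor feeding and later overeating, together with Peg3, Dlk1, Gnas and Nnat. They were chosen by name. All site rows carrying one of these symbols were taken, which gave 103 of 73922 polyadenylation sites and 7 of the 8 genes. The parent of origin of a read was not measured, so the values below are totals over both alleles.

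Hypothalamic tissue from 8 rats, all adult Long-Evans males, was profiled by whole transcriptome termini site sequencing (WTTS-seq), which counts the 3′ ends of polyadenylated RNA. Rats fed standard chow, with 0.51 kcal/g from fat, formed the control group (n = 4). The obesity group (n = 4), labelled as diet-induced obesity, had free access to a high fat diet with 1.71 kcal/g from fat, and tissue was taken after 36 days in all rats. The labels name no genetic change or drug, and body weights were not used here. Each library was a whole-tissue sample, so fewer cells of a type and less RNA per cell cannot be told apart.

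Library totals ranged from 1417531 to 1957726 reads. All 13 hypothalamic markers that were looked up were present, with summed levels of 1224 to 1648 CPM (counts per 1e+06 reads) in controls and 1027 to 1274 CPM in the obesity libraries. The groups did not overlap at 4 of the 13 (3.53% of all genes), with lower levels of the hormone genes Avp and Oxt and higher levels of Crh and Otp in the obesity libraries. Crh and Otp had only 71 and 38 reads in all. In the edgeR test used below, 0 of the 13 were called at an adjusted p under 0.1, against 0% of all genes. Of 6 anterior pituitary markers, Prl, Tshb and Fshb had no row, and the summed level of the others was 124 CPM in obesity library 2 against 5.95 to 55.8 CPM elsewhere. In that library Gh1, which encodes growth hormone, reached 69.1 CPM, while the other 7 libraries held at most 0.783 CPM. Lhb, also of that list, was at 46.1 CPM there and at 0 to 6.26 CPM elsewhere. Cga, the pituitary hormone subunit gene with most reads of that list, was at 8.74 CPM there and at 0 to 50.2 CPM elsewhere. Of 3 choroid plexus markers, Kcnj13 and Folr1 had no row. The remaining one, Ttr, was at 95.2 CPM in obesity library 4 and at most 1.49 CPM elsewhere. The part of these cells in the results below was not tested, and values without single libraries are given where they matter.

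Each read was taken to mark 1 transcript end, so read numbers were compared between genes without division by length. Internal priming at A-rich stretches can create sites and was not checked, so the numbers are of reads and not of transcripts. The members spanned a wide range on that scale. Gnas held 44820 reads over the 8 libraries and ranked 12 among 12239 genes, and Peg3 held 37614 reads and ranked 15. Nnat followed with 6732 reads and rank 208. Snurf had 694 reads, Dlk1 554, Ndn 416 and Magel2 274. Snrpn had no row under its own symbol, and the table lists only sites with at least 30 reads in total. Snurf and Snrpn are made from 1 transcript locus and share the same start in the RefSeq gene table of the GRCr8 assembly, so reads of both genes may stand under Snurf.

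**Figure D1:**
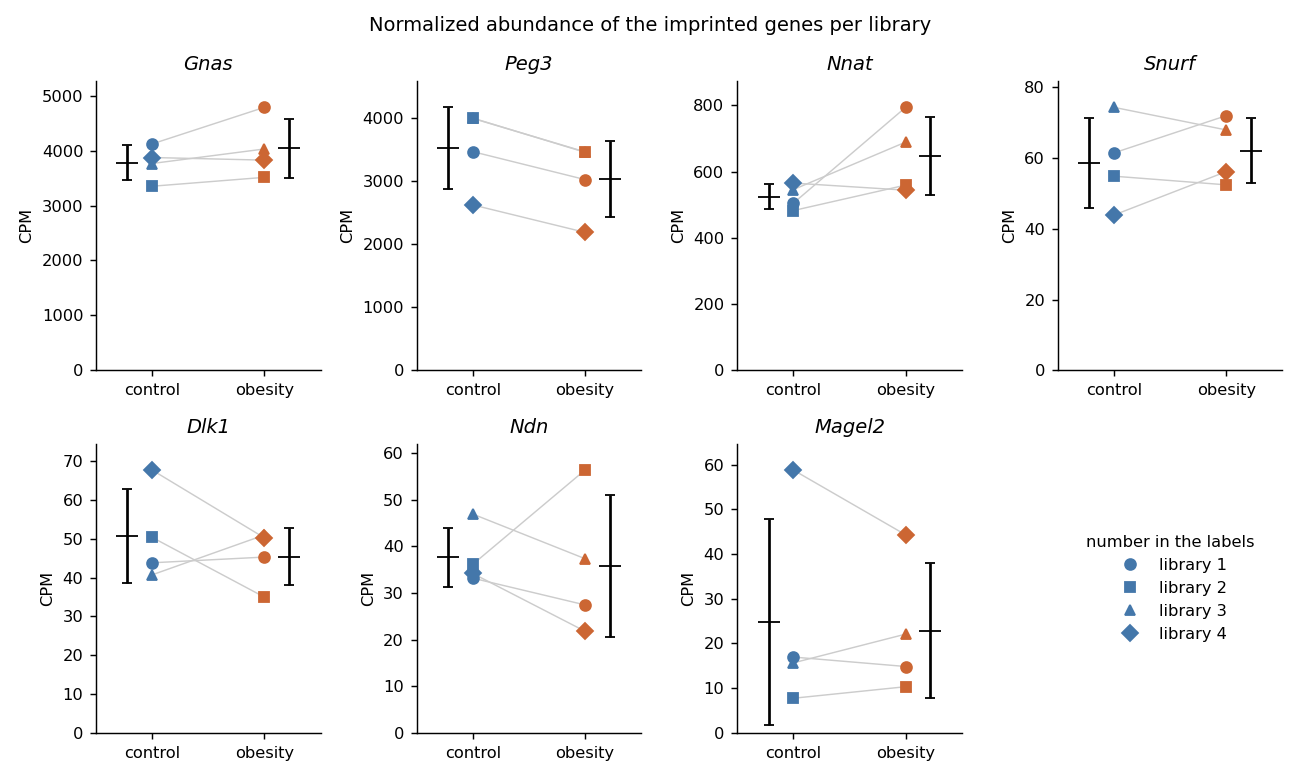
Normalized abundance in CPM of the 7 imprinted genes with site rows, in 4 control and 4 obesity libraries. Symbols give the number in the labels, lines join equal numbers, and black bars show mean ± SD. The groups overlap for every gene, and Peg3 was lower in the obesity library of all 4 pairs.

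No member gene passed the test for a difference between the diets. With edgeR's quasi-likelihood test and Benjamini-Hochberg adjustment over all genes, 0 of 7 members were called at an adjusted p under 0.1, and 0 had an unadjusted p under 0.05. Over all 12239 genes, 0% were called and 5.28% had an unadjusted p under 0.05. In a fit with the library number as a replicate block, 0 members and 0.123% of all genes were called. The groups overlapped for all 7 members, whereas 3.53% of all genes had groups that did not overlap. DESeq2's Wald test also called 0 members, against 0.0246% of all genes.

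Ndn encodes necdin, a protein of the MAGE family that restrains growth and promotes survival of neurons. Its only site lies on chr1 at 122983323-122983359 of the plus strand (Rnor_6.0). As a gene, Ndn held 33.2, 36.2, 47.0 and 34.2 CPM in control libraries 1 to 4. The obesity libraries held 27.5, 56.4, 37.4 and 21.8 CPM. Obesity library 2 was the highest and obesity library 4 the lowest of all 8. The log2 fold change was −0.076 ± 0.34 (SE), with a 95% interval of −0.79 to 0.64. Leaving out single libraries moved it between −0.39 and 0.10.

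Magel2 encodes another MAGE protein, which assists ubiquitin ligases in sorting membrane proteins. Its only site lies on chr1 at 123018461-123018489 of the plus strand, near Ndn. Control libraries 1 to 4 counted 24, 12, 20 and 79 reads. Obesity libraries 1 to 4 counted 20, 13, 39 and 67. The library numbered 4 was the highest in both groups and that numbered 2 the lowest. Obesity differed from control by −0.10 ± 0.57 (SE) on the log2 scale. The interval, −1.32 to 1.12, was the widest of the 7 genes and ran from 0.400-fold to 2.17-fold.

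Snurf encodes a small protein read from the same transcript as the splicing protein of Snrpn. The table places its 8 sites on the minus strand of chr1 at 195072433-195096615, far from Ndn and Magel2 on Rnor_6.0. In the GRCr8 gene table Snurf lies nearer to Ndn on the same chromosome, so its place in the files is in doubt. Its levels were 61.5, 54.9, 74.4 and 43.9 CPM in controls and 72.0, 52.4, 68.0 and 56.2 CPM in the obesity libraries. For Snurf the log2 fold change was 0.085 ± 0.26 (SE), with an interval of −0.47 to 0.64. The site at 195087432-195087450 carried 49.3% of its reads, and the most 3′ site, at 195072433-195072470, carried 5.04%. Only 2 of the 8 sites had reads in all libraries.

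Past the most 3′ site of Snurf, 2 sites without a gene name lay on the same strand within 2000 bases, with 144 and 125 reads. Adding them to Snurf changed the log2 fold change from 0.085 to −0.036. Neither value differed from 0 beyond its error.

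Dlk1 encodes a membrane protein related to Notch ligands. Its 4 sites lie on the plus strand of chr6 at 133578168-133585745. It was measured at 43.8, 50.4, 40.7 and 67.7 CPM in controls and 45.3, 35.0, 51.0 and 50.2 CPM in the obesity libraries. Dlk1 had a log2 fold change of −0.16 ± 0.28 (SE). Obesity library 2 had the lowest level of the named Dlk1 sites.

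More reads lay just past the named Dlk1 sites than at them. An unnamed site 909 bases past its most 3′ site, at chr6 133586654-133586682, held 885 reads, against 554 for all named Dlk1 sites. Its reads were 79, 109, 159 and 138 in controls and 49, 147, 157 and 47 in the obesity libraries. With this site and a smaller one of 37 reads added, Dlk1 stood at 144 ± 33.1 CPM in controls and 116 ± 37.0 CPM in the obesity group (SD, n = 4 each). Obesity library 2 was then the highest of its group, at 153 CPM. The log2 fold change was then −0.31 ± 0.26 (SE), with an adjusted p of 0.931 by edgeR's quasi-likelihood test with Benjamini-Hochberg adjustment. Whether these reads belong to Dlk1 was not tested.

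Peg3 encodes a zinc finger protein expressed from the paternal allele. Its level was 3471, 3999, 4004 and 2625 CPM in controls and 3027, 3467, 3460 and 2189 CPM in the obesity libraries. It was the only member lower in 4 of 4 pairs of equally numbered libraries, a pattern shared by 9.56% of all genes. The 4 differences were close to each other, from −0.20 to −0.26 on the log2 CPM scale, with an SD of 0.029. The SD within groups was 0.30, and over 4417 genes with at least 400 reads the median SD of the pair differences was 0.39. On the log2 scale the change was −0.22 ± 0.20 (SE), and the adjusted p was 0.954 without and 0.510 with the replicate block, both by edgeR's quasi-likelihood test with Benjamini-Hochberg adjustment.

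Nnat encodes neuronatin, a small membrane protein of the endoplasmic reticulum linked to calcium handling and to feeding. Controls held 504, 482, 546 and 565 CPM, and the obesity libraries 794, 559, 689 and 544 CPM. Obesity libraries 1 and 3 lay above all controls, while libraries 2 and 4 lay among them. Its log2 fold change of 0.30 ± 0.19 (SE) was the largest of the 7 in size, with an interval of −0.10 to 0.70. Its adjusted p was 0.912, and 0.463 with the replicate block, by edgeR's quasi-likelihood test with Benjamini-Hochberg adjustment.

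Gnas encodes the stimulatory G protein alpha subunit, which couples receptors such as the melanocortin receptors to cyclic AMP, and its locus also makes longer proteins from other promoters. The total was 4121, 3351, 3765 and 3874 CPM in controls and 4788, 3513, 4030 and 3826 CPM in the obesity libraries. The log2 fold change was 0.10 ± 0.18 (SE), with an interval of −0.28 to 0.47. The members together took 0.697% ± 0.056 of all reads in controls and 0.668% ± 0.0705 in the obesity group (SD, n = 4 each).

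Sites within a gene were compared next, since WTTS-seq separates transcripts that end at different places. No member site was called at an adjusted p under 0.1 by edgeR's quasi-likelihood test with Benjamini-Hochberg adjustment over all sites. At an unadjusted p under 0.05 stood 8 of the 103 sites (7.77%), against 3.14% of all sites, and 15 (14.6%) with the replicate block, against 6.09%. Called sites made up 0.00135% of all sites and 0.00541% with the block. Groups did not overlap at 7 sites (6.80%), against 3.11% of all sites. The obesity library was the higher one in 4 of 4 pairs at 14 sites (13.6%), against 7.69% of all sites, and the lower one at 13 (12.6%), against 7.87%. Sites of 1 gene share their source and are not independent, and 78 of the 103 belonged to Gnas and Peg3. In the test of site usage within a gene, 0 of the 5 members with several sites were called, against 0.0121% of 8267 genes.

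**Figure D2:**
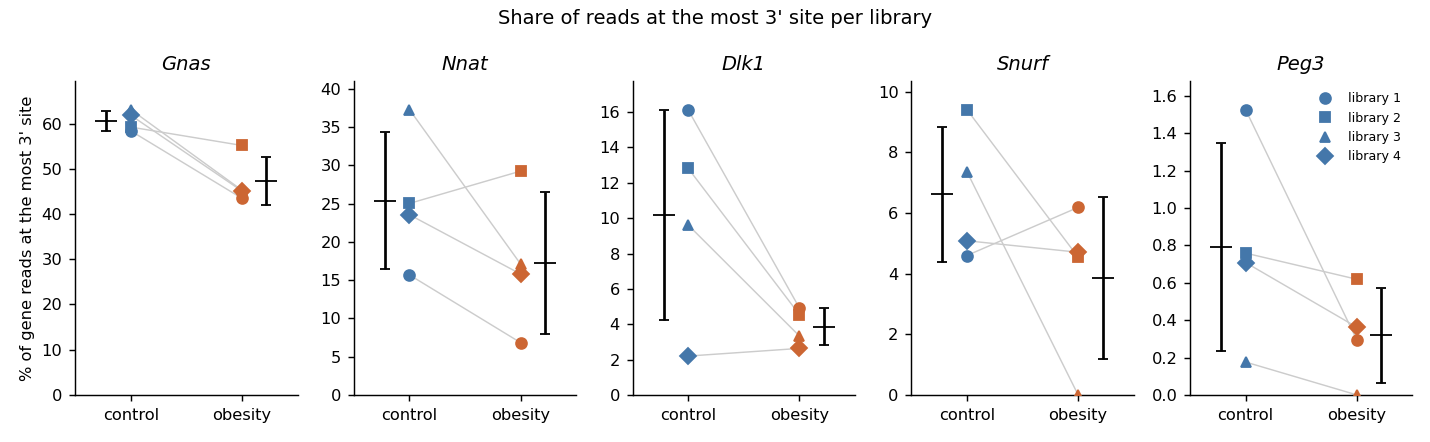
Percent of a gene's reads at its most 3′ site in each library for the 5 members with several sites. Symbols give the number in the labels, lines join equal numbers, and black bars show mean ± SD. For Gnas the controls lie between 58.4% and 63.1% and the obesity libraries between 43.5% and 55.2%, and for the other genes the groups overlap.

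At Gnas the share of reads at the most 3′ site was lower in the obesity libraries. This site, at chr3 172434812-172435002 of the plus strand, is also the largest, with 23809 reads. It held 58.4, 59.2, 63.1 and 61.8% of Gnas reads in control libraries 1 to 4. In the obesity libraries it held 43.5, 55.2, 45.3 and 45.1%. The groups did not overlap, the share was lower in 4 of 4 pairs, and obesity library 2 lay closest to the controls. Means were 60.6% ± 2.2 and 47.2% ± 5.34 (SD, n = 4 each), a difference of −13.4 percentage points. The exact two-sided permutation p was 0.0286, the smallest that 4 against 4 libraries can give, and 3.14% of 8064 genes reached a p under 0.05 in this test (2.98% when the largest site was taken). Adjusted over all those genes the exact permutation p was 0.911. The arrangements did not keep equally numbered libraries paired. With 4 against 4 libraries, 2304 genes would have had to reach the smallest p for any to pass an adjusted 0.1, so this test could hardly pass at this size.

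About 11.5 kb upstream, shares were higher in the obesity library of all 4 pairs. Shares of the same gene are not independent, since a higher share at some sites lowers that of the others. In abundance, the most 3′ site had a log2 fold change of −0.34, and of −0.42 to −0.26 under other settings. A group of 5 sites at 172422976-172423560 held 28.8, 22.7, 14.4 and 24.7% of Gnas reads in controls and 45.2, 23.8, 40.8 and 42.5% in the obesity libraries. The difference was small in the pair numbered 2, and the other 3 obesity libraries stood above all controls. The main site of this group, at 172423422-172423476, counted 1030, 663, 477 and 724 reads in controls. In obesity libraries 1 to 4 it counted 1853, 594, 2260 and 1670. In CPM it was higher in 4 of 4 pairs, with 381 and 411 CPM in the pair numbered 2. Its log2 fold change was 0.99 ± 0.33 (SE). The adjusted p was 1.00, and 0.241 with the replicate block, by edgeR's quasi-likelihood test with Benjamini-Hochberg adjustment. With both libraries numbered 2 left out of the block fit, a setting chosen after seeing the data, the value was 1.18 and the adjusted p 0.00300 by the same edgeR test and adjustment. That setting called 366 sites of the whole table, against 4 with all libraries.

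**Figure D3:**
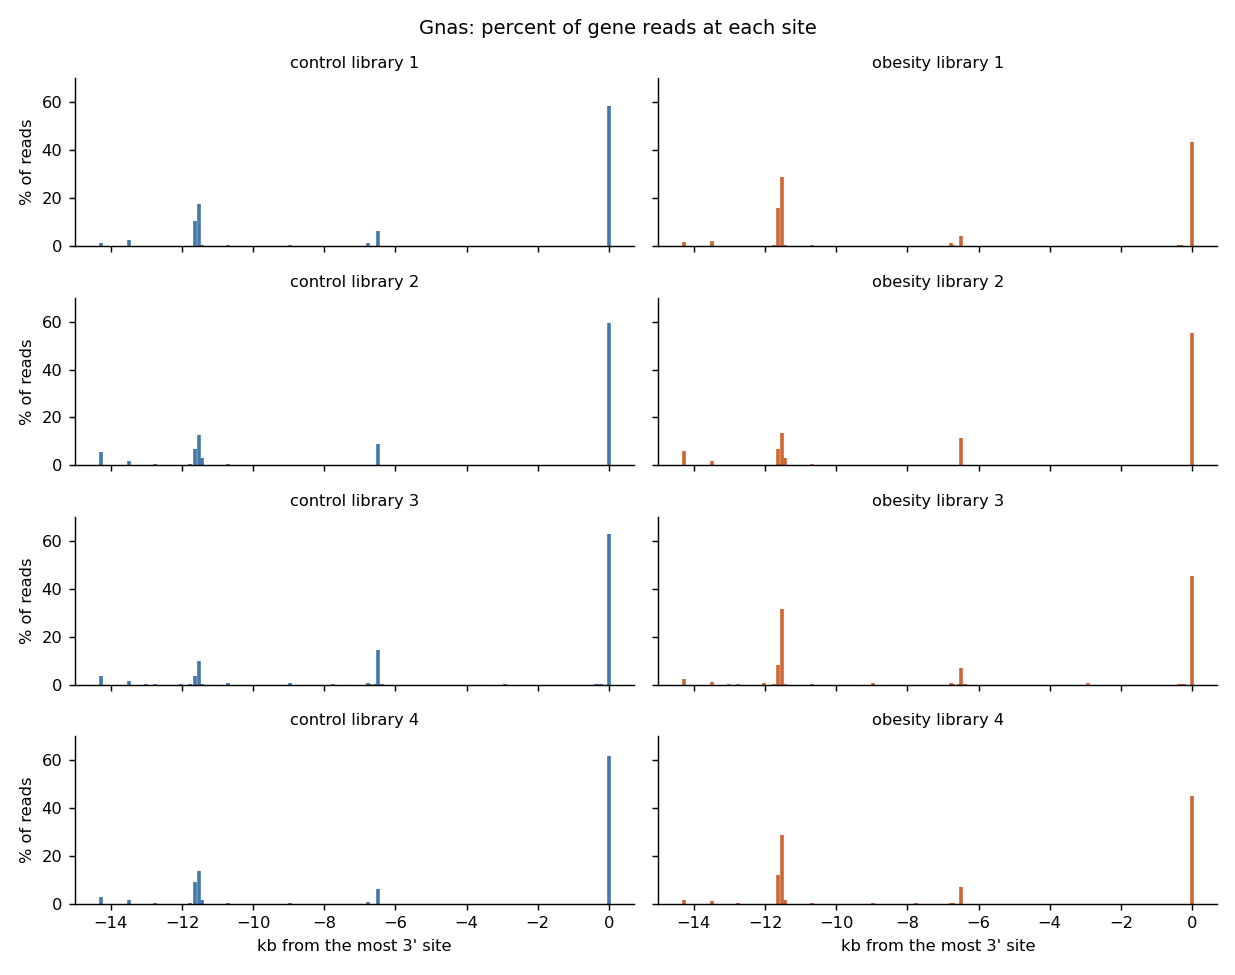
Percent of Gnas reads at each site, drawn as vertical lines by distance in kb from the most 3′ site, with control libraries on the left and obesity libraries on the right. In obesity libraries 1, 3 and 4 the lines 11.5 kb upstream are taller and the line at 0 is shorter than in the controls, while obesity library 2 resembles control library 2.

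Another group of 5 Gnas sites at 172428208-172428633 showed no such difference, with 9.78% ± 3.70 of reads in controls and 8.30% ± 2.58 in the obesity group (SD, n = 4 each). The single site at 172420656-172420713 held 3.38% ± 1.77 and 2.95% ± 2.02. It was highest in both libraries numbered 2, at 5.59 and 5.95%. A small site at 172434663-172434694, with 46 reads in all, had 0 to 3 reads in each control and 6 to 17 in each obesity library.

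The mean share at most 3′ ends over the whole table was also lower in 3 of the obesity libraries. The mean share over 8064 genes with several sites was 32.4 to 34.9% in controls, and 29.8, 33.2, 29.99 and 29.8% in obesity libraries 1 to 4. Obesity library 2 was again the one among the controls. The Gnas difference was larger than the mean difference of −2.39 points, and 12.8% of these genes had a difference as low or lower. The median difference over the 8064 genes was −1.54 points. Over 327 such genes with at least 5000 reads, as Gnas has, the median difference was −0.28 points, and 4 of them (1.22%), Gnas included, were as low. The cut of 5000 reads was not part of the planned comparisons. The part of this shared shift in the Gnas difference was not tested. Without obesity library 2 the Gnas difference was −16.0 points, and without any other single library it stayed between −14.2 and −12.1 points.

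Peg3 had 53 sites over 22692 bases of chr1, at 70214766-70237457 of the plus strand, whereas the median gene had 2 sites and 118 genes had more than 50. The 5 largest sites held 71.9% of its reads, and 43 sites each held under 1%. The largest, at 70235655-70235840, carried 39.6% of all Peg3 reads, and its share ranged from 18.0 to 59.1% among libraries. The most 3′ site, at 70237435-70237457, held at most 1.53% in any library. A site of 637 reads at 70235230-70235250 lay on the other strand and was counted with the gene by its symbol.

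One Peg3 site was several times higher in both libraries numbered 2. The site at 70233554-70233710 had 2113 reads in control library 2 and 1545 in obesity library 2, and between 223 and 481 reads in each of the other 6 libraries. In both libraries numbered 2 it took over a large part of the reads, with 34.1 and 35.4% of Peg3. The largest site was at its lowest in the same libraries, at 21.8 and 18.0%. In CPM the site at 70233554-70233710 was lower in the obesity library of all 4 pairs, at 180 and 126, 1216 and 1070, 353 and 123, and 274 and 138 CPM. Its log2 fold change was −0.47 ± 0.84 (SE) without the replicate block, with an adjusted p of 1.00 by edgeR's quasi-likelihood test with Benjamini-Hochberg adjustment. With the block it was −0.80 with an adjusted p of 0.327 by the same edgeR test and adjustment. With the block and without both libraries numbered 2, a setting chosen after seeing the data, it was −1.01. The adjusted p was then 0.0459 by the same edgeR test and adjustment. That setting called 366 sites of the whole table, against 4 with all libraries. Without the block and with only control library 2 left out, the site was at 0.44.

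**Figure D4:**
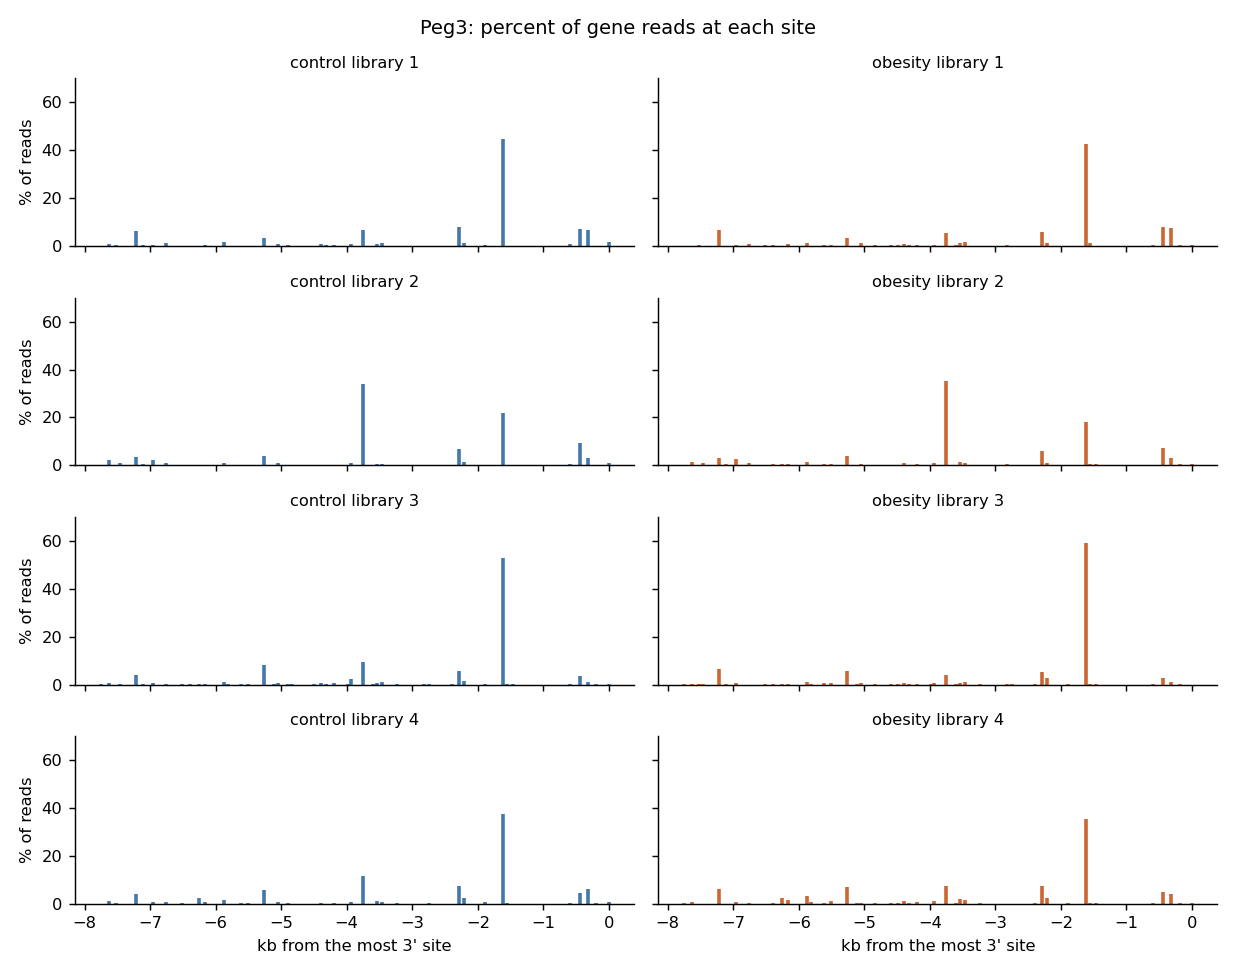
Percent of Peg3 reads at each site within 8 kb of the most 3′ site, drawn as vertical lines by distance in kb, with control libraries on the left and obesity libraries on the right. In both libraries numbered 2 the line 3.7 kb upstream holds 34.1 and 35.4% of reads and exceeds the line 1.6 kb upstream, and in the other 6 libraries the latter is the tallest.

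At 5 of the 53 Peg3 sites (9.43%), all of them small, the groups did not overlap, against 3.11% of all sites. The site at 70231895-70231949 held 8, 15, 14 and 7 reads in controls, against 24, 30, 31 and 40 with obesity. The site at 70235868-70235896, next to the largest one, held 1, 0, 1 and 8 reads in controls, against 42, 14, 15 and 17 with obesity. The site at 70236822-70236857 went the other way, with 31, 20, 21 and 17 reads in controls and 9, 7, 8 and 6 with obesity. The other 2, at 70235977-70235991 and 70232592-70232615, had 42 and 41 reads in all and were higher in the obesity libraries. Their log2 fold changes were 1.37 ± 0.49, 2.92 ± 0.90 and −1.66 ± 0.51 (SE) for the first 3. All had adjusted p-values of 1.00 by edgeR's quasi-likelihood test with Benjamini-Hochberg adjustment, and each held under 0.5% of Peg3 reads.

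Nnat had 11 sites within 1806 bases of chr3, at 154044538-154046343 of the plus strand. The first, at 154044538-154044703, carried 51.2% of the reads and the most 3′, at 154046324-154046343, carried 20.1%. The most 3′ share was 25.4% ± 8.94 in controls and 17.2% ± 9.22 in the obesity group (SD, n = 4 each), with an exact permutation p of 0.286. Library 1 had the lowest such share in both groups, at 15.7 and 6.82%. Small sites at 154045587-154045613 and 154045733-154045765 had log2 fold changes of 1.48 ± 0.65 and 1.33 ± 0.59 (SE), with groups that overlapped.

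The site at 133585057-133585107 carried 76.4% of Dlk1 reads. The share at its most 3′ site was 10.2% ± 5.96 in controls and 3.86% ± 1.06 in the obesity group (SD, n = 4 each), with an exact permutation p of 0.143 over 37 reads. All 5 members with several sites had a lower mean share at the most 3′ site in the obesity group, which is the direction of the mean over all genes given above.

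Equally numbered libraries resembled each other at many sites of the whole table, member sites included. The same number was highest in both groups at 44 of 103 member sites (42.7%), against 39.2% of all sites. Among sites with at least 300 reads it was 17 of 29 (58.6%), against 48.6%. For the Gnas sites it was 13 of 25 and for the Peg3 sites 21 of 53. What the number stands for is not given in the labels.

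A list of other imprinted genes was looked up in the same fit. Of 58 genes, 34 had a row under the listed symbol and a further one, Meg3, under the older symbol RGD1566401. By edgeR's quasi-likelihood test, 0 of these 35 were called, against 0% of all genes. An unadjusted p under 0.05 was found for 2 of the 35, Igf2 and Meg3, and for 5.28% of all genes. The median log2 fold change of the 35 was −0.068, beside 0.0085 over all genes, with 14 higher and 21 lower. The list was chosen with earlier results of these data known.

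**Figure D5:**
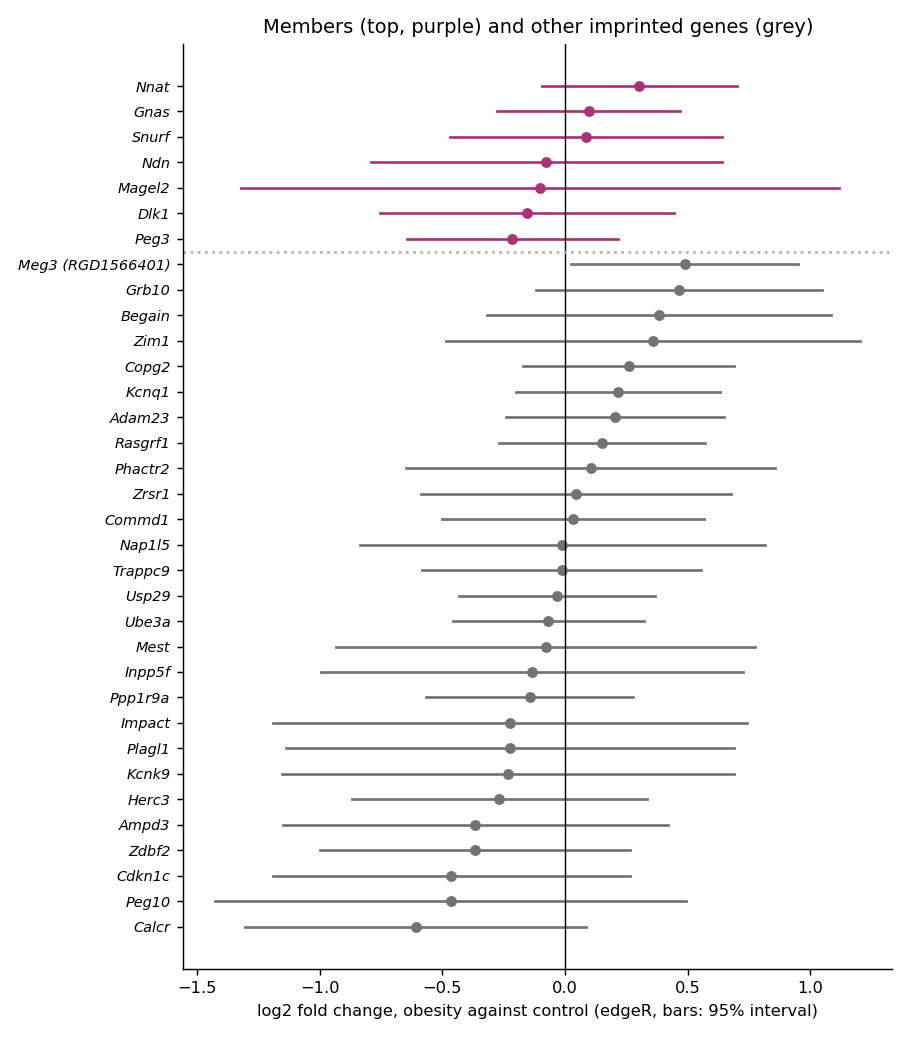
Log2 fold change, obesity against control, with 95% intervals from edgeR for the 7 members (purple) and for the other imprinted genes with at least 200 reads (grey), 26 of them and Meg3. The interval of Meg3 lies above 0, and every other interval drawn includes 0. Igf2, with 118 reads, is not drawn, and its interval of −3.05 to −0.34 lies below 0.

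Igf2, a fetal growth factor made in the brain mostly by the meninges and choroid plexus, had 118 reads and stood at 7.07, 10.3, 27.4 and 20.8 CPM in controls and 2.97, 9.53, 6.23 and 1.32 CPM in the obesity libraries. Its log2 fold change was −1.70 ± 0.65 (SE) and its adjusted p 0.905 by edgeR's quasi-likelihood test with Benjamini-Hochberg adjustment. Copg2, a coat protein gene next to Mest, was the most abundant of the list after Meg3, at 14878 ± 2531 CPM in controls and 17808 ± 3872 CPM in the obesity group (SD, n = 4 each). Its log2 fold change was 0.26 ± 0.20 (SE), higher in 4 of 4 pairs, as were 9.23% of all genes. Ube3a, the Angelman syndrome gene beside the Prader-Willi region, was at −0.068 ± 0.19 and Usp29, which neighbours Peg3, at −0.033 ± 0.19 (SE). Zdbf2 was at −0.37 ± 0.30 and Herc3 at −0.27 ± 0.28, while Nap1l5, which lies within Herc3, was at −0.011 ± 0.38 (SE). The rest of the abundant genes, Kcnq1, Zrsr1, Ppp1r9a, Rasgrf1 and Adam23, lay between −0.14 and 0.22. Grb10, an adaptor that damps insulin signalling, was the only one of the 34 whose groups did not overlap (2.94%, against 3.53% of all genes), at 43.9 ± 3.13 and 60.4 ± 17.1 CPM (SD, n = 4 each). It fell outside the naming rule and was picked after its values were seen.

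Genes next to the members or acting with them gave a similar picture. Of 30 such partner symbols, with Meg3 under both of its symbols, 18 were measured and 0 were called, against 0% of all genes. Some of these genes, among them Usp29, Ube3a and Meg3, also stand in the list of other imprinted genes. Meg3, the maternally expressed noncoding RNA beside Dlk1, is listed in the files as RGD1566401 and was far more abundant than Dlk1. It stood at 38387, 43001, 25886 and 45797 CPM in controls and 65849, 44245, 42014 and 62481 CPM in the obesity libraries, higher in 4 of 4 pairs. The groups overlapped. Its log2 fold change was 0.49 ± 0.22 (SE), and its adjusted p was 0.905, and 0.112 with the replicate block, by edgeR's quasi-likelihood test with Benjamini-Hochberg adjustment. With both libraries numbered 2 left out of the block fit, a setting chosen after seeing the data, the value was 0.63. The adjusted p was then 0.00215 by the same edgeR test and adjustment. That setting called 567 genes of the whole table, against 15 with all libraries.

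Usp7, whose product is a deubiquitinating enzyme that binds the Magel2 protein, was lower in 4 of 4 pairs. Controls held 40.3, 58.8, 62.6 and 25.3 CPM, and the obesity libraries 19.3, 49.3, 16.4 and 16.5 CPM. Obesity library 2 lay with the controls. The fitted log2 value for Usp7 was −0.89 ± 0.41 (SE), with an adjusted p of 0.905 by edgeR's quasi-likelihood test with Benjamini-Hochberg adjustment. Among partners of the Gnas product, Gnal was at 0.31 ± 0.26, Adcy2 at 0.20 ± 0.24, Gnb1 at −0.094 ± 0.20 and Gng3 at −0.12 ± 0.28 (SE). Atp2a2, a calcium pump of the compartment in which neuronatin resides, was at 0.0076 ± 0.18 (SE).

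Genes with a pattern most like that of each member were found by Pearson correlation of log2 CPM over the 8 libraries among 4416 other genes with at least 400 reads. These values are descriptions, and the 8 points share depth and library number. Peg3 was most like Mgll (r = 0.969), Rsrc2 and Lyz2, and Gnas was most like Cdhr4 (r = 0.969), LOC108348204 and Rbm4. Ndn was most like Naa38 (r = 0.978), Fbxo2 and Tmem160, and Nnat was most like Srcap (r = 0.964), Slc16a6 and Cep290. Dlk1 was most like Thsd7a (r = 0.951), LOC103694917 and Vps53, and Snurf was most like Nipsnap1 (r = 0.906), Fen1 and Myo18a. Magel2 had too few reads for this comparison.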

How the data were processed

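The hypothalamus of 4 control and 4 obesity rats was profiled by WTTS-seq. The authors deposited unnormalized counts of reads, 1 row per site, most with a gene symbol. The submitters' processing notes name Bowtie2 2.2.3 and Rnor_6.0, and other settings are not given in the sources used here. Internal priming at A-rich stretches can create sites and was not checked. A line without a site was left out.

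Counts of all sites with a symbol were summed per gene, both strands included. Genes (12239), sites (73922) and site usage (8267 genes) were tested with edgeR 4.0.16 in R 4.3.3 (quasi-likelihood F test, TMM scaling) on the whole table, with Benjamini-Hochberg adjustment and a threshold of 0.1. CPM are counts per 1e+06 reads after TMM scaling, of reads with a gene symbol for genes and of all reads for single sites. Ndn and Magel2, with 1 site each, therefore have slightly different fold changes as genes and as sites. Site shares were compared by exact permutation over 70 arrangements, adjusted over all 8064 genes with reads in every library, in place of the planned adjustment over the members alone. Scripts were tested on simulated data.

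Equally numbered libraries deviated together (correlation 0.349 to 0.560, against −0.336 to 0.148 for unequal numbers), so a fit with the number as a replicate block was made as an alternative. Without the block, p-values measure a spread in which differences between rats and between library numbers are mixed. With the block they measure the spread left within numbers. The exact permutations did not keep equal numbers paired. No pair of libraries agreed within sampling noise. Alternatives covered scaling, filtering, DESeq2 1.42.0, strand and leaving out libraries. Named were all members, their sites with 10% or more of the gene's reads, the most 3′ sites, sites with an unadjusted p under 0.05 and no overlap, listed genes with 1000 or more reads or an unadjusted p under 0.05, and the 3 genes most like each member. Nnat sites and others outside this rule were picked after their values were seen. The members and lists were chosen with earlier results of these data known. Of the 8 members, 8 matched the RefSeq gene table of GRCr8, used for names and for which genes lie together, with no coordinate printed.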

Additional observations from a re-analysis of the deposited data

Results flagged for a closer look

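In 108 checks of a single library against the other 3 of its group, 8 stood apart by Dixon's test. Chance would give about 5 if the checks were independent. They were not, and the Gnas share below stands among the 8 as both most 3′ and largest site. Peg3 gave several of the 8. Its site at 70233554-70233710 stood at 1216 CPM in control library 2, with 180 to 353 CPM in the other controls, and at 1070 CPM in obesity library 2, with 123 to 138 CPM in the other obesity libraries. Its site at 70235868-70235896 stood at 5.27 CPM in control library 4, with at most 0.734 CPM in the others, and at 23.8 CPM in obesity library 1, with 7.59 to 9.70 CPM in the others. Its site at 70235977-70235991 stood at 1.47 CPM in control library 3 and at 0 in the other controls, which is a matter of 2 reads.

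The Gnas share at the most 3′ site, which is also the largest site, was 55.2% in obesity library 2 and 43.5 to 45.3% in the other obesity libraries. Usp7 stood at 49.3 CPM in obesity library 2, with 16.4 to 19.3 CPM in the other obesity libraries.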

How the results depend on the processing

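Counts of called members were unchanged by scaling, filtering, strand and the choice of test: member genes called, and member genes called for site usage, were 0 in every alternative run, and leaving out single libraries kept the called member sites at 0. The replicate block (paired numbers) called 0 member genes and 0 member sites, while calls over all genes went from 0 to 15 and over all sites from 1 to 4. DESeq2 called 3 of all genes and 10 of all sites. Without obesity library 2, edgeR called 1 gene, and the usage test 10 genes against 1. With the block and both libraries numbered 2 left out, chosen after seeing the data, 567 genes and 366 sites were called over the whole table. Then 2 member sites (the Gnas site at 172423422-172423476 and the Peg3 site at 70233554-70233710) and 2 other imprinted genes (Calcr at −1.09 and Igf2 at −2.36, log2) were called, as were Usp7 at −1.23 and Meg3 at 0.63. In the block without both numbered 4, also chosen after seeing the data, 1 member site was called. It was the Peg3 site at 70235868-70235896, at 4.80, among 17 sites of the whole table.

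Some log2 fold changes changed sign, none of them called in the main fit or in the setting that changed the sign. The cause was not tested. Among them was the Peg3 site at 70233554-70233710, called in the setting given above and at 0.44 without control library 2. Under the replicate block Magel2 was at 0.036 and the Snurf site at 195087432-195087450 at −0.049. In the block without both numbered 1, Magel2 was at 0.090 and its site at 0.049. Without both numbered 2, Usp29 was at 0.019, Atp2a2 at −0.037, and the Snurf sites at 195087432 and 195081968 at −0.055 and 0.15. Without both numbered 3, Zrsr1 was at −0.015 and the Snurf site at 195087432 at −0.080. Without both numbered 4, Ndn was at 0.019, Magel2 at 0.23 and its site at 0.18, Nap1l5 at 0.013, Gnb1 at 0.014, Gng3 at 0.037, Atp2a2 at −0.012 and the Snurf site at 195087432 at −0.27. Total-read scaling put Atp2a2 at −0.00062, and the unnamed sites within 2 kb put Snurf at −0.036. Counting only sites with at least 1% of the gene's reads put the difference of the largest Peg3 share at 0.476 points.

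Leaving out 1 library at a time gave log2 ranges that crossed 0 for these genes: Ndn −0.39 to 0.10, Magel2 −0.63 to 0.77, Snurf −0.031 to 0.22, Dlk1 −0.25 to 0.014, Usp29 −0.11 to 0.016, Ube3a −0.18 to 0.024, Zrsr1 −0.17 to 0.30, Nap1l5 −0.49 to 0.28, Ppp1r9a −0.24 to 0.0021, Gng3 −0.35 to 0.081 and Atp2a2 −0.039 to 0.069. For sites the ranges were −1.97 to 0.44 (Peg3 at 70233554), −0.74 to 0.056 (Peg3 at 70235655), −0.45 to 0.052 (Ndn), −0.69 to 0.71 (Magel2), −0.12 to 0.22 (Snurf at 195087432), −1.03 to 0.56 (Snurf at 195081968) and −0.44 to 0.031 (Dlk1 at 133585057). For the share at the largest site they were −7.28 to 6.42 points (Peg3), −5.03 to 8.98 (Snurf) and −5.98 to 5.33 (Dlk1).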
